A study of Mus musculus with 18 samples.

Results

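The 6 keratin genes described here are Krt7, Krt8, Krt18 and Krt19, the keratins of simple (single-layered) epithelia, and Krt4 and Krt13, a pair known from stratified mucosal epithelium and from the airway patches called hillocks. They were chosen by name and matched by Entrez identifier to 6 of the 27179 genes counted. All 6 passed the filter on low counts, which kept 17989 genes. The study sequenced RNA from 18 libraries of cells sorted from C57BL/6 mice aged 8 to 12 weeks, with no transgene and no treatment in any group. Trachea from mice 1 to 3 gave NGFR-positive basal cells, called basal stem cells (BSCs) here, and NGFR-negative tracheal non-basal cells. Lung from mice 4 to 6 gave 4 populations. These were airway CD24hi cells (EpCAM-positive, CD104-positive, CD24-high, labelled as enriched in ciliated cells), airway CD24lo cells (the same gate but CD24-low, labelled as enriched in club cells), alveolar cells (EpCAM-positive, CD104-low) and EpCAM-negative cells (labelled non-epithelial). Each population had 3 libraries, 1 per mouse, so organ, mice and cell type cannot be told apart in any comparison of trachea with lung. Each sorted population is enriched, not pure.

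Keratins are the intermediate filament proteins of epithelial cells. A filament is built from pairs of a type I and a type II keratin, so an epithelial cell makes at least a member of each type. Krt8 (type II) and Krt18 (type I) are the usual partners of simple epithelium, Krt7 (type II) is common in ducts and airways, and Krt19 (type I) is a small keratin found widely in simple and basal epithelium. Krt4 (type II) pairs with Krt13 (type I) in the upper layers of non-keratinised stratified epithelium such as that of the oesophagus, and both mark hillocks in mouse trachea.

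On the mouse build GRCm38.p6 the RefSeq table places Krt7 at chr15:101412403-101427806 (plus strand), Krt4 at chr15:101918535-101924735 (minus), Krt8 at chr15:101996711-102004342 (minus) and Krt18 at chr15:102028216-102032026 (plus). Krt13 lies at chr11:100117327-100121566 and Krt19 at chr11:100140810-100145926, both on the minus strand. Krt18 is thus a type I gene that sits next to its type II partner Krt8, with 23874 bases between their start sites, which are transcribed away from each other. The counts cover the exons of each gene. Of the windows of 100 bases (a read length) in Krt8 transcripts, 17.1% also occurred in a transcript of Gm36026, a long non-coding RNA, or Krt8-ps, a pseudogene, so part of the Krt8 count is uncertain. No such window of the other 5 members was found in another gene's transcripts.

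The 250 bases before the start site are shown for 4 of the 6 members, those the RefSeq promoter table holds. Krt8 and Krt18 are shown because they varied together across populations, Krt7 as a further simple keratin, and Krt13 because it was nearly limited to trachea. Each reads 5′ to 3′ on the gene's own strand, and capitals mark matches to a GC box (GGGCGG) or an AP-1 site (TGANTCA).
Krt8, chr15:102004343-102004592: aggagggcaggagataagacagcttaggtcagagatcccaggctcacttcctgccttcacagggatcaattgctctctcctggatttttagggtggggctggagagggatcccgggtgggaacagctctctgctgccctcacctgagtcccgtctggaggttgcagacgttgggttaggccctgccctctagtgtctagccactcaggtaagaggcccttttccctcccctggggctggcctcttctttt
Krt18, chr15:102027966-102028215: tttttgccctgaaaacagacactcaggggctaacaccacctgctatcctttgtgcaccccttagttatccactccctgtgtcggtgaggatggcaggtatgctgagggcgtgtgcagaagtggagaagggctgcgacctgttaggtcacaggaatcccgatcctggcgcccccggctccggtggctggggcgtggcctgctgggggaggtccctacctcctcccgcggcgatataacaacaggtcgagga
Krt7, chr15:101412153-101412402: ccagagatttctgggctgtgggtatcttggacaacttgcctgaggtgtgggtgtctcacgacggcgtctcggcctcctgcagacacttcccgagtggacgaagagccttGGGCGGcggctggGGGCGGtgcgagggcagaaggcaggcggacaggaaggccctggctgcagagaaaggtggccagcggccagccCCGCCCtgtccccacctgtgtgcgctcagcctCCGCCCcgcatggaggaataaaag
Krt13, chr11:100121567-100121816: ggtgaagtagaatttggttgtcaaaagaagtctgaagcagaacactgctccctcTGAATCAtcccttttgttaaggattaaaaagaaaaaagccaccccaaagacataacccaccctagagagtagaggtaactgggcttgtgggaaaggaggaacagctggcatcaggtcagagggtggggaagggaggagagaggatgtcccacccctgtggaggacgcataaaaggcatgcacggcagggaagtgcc
The letters were searched on both strands, together with TATAAA and CCAAT, and no match overlapped another. Krt7 held 4 GC boxes, a motif present in 32.7% of the 32851 promoters of the table over the same length. The printed Krt13 window held 1 AP-1 site, TGAATCA, whose first base lay 196 bases before the start. AP-1 letters were present in 6.7% of all promoters. A further Krt13 window, at an internal start (chr11:100120578-100120827), held 2 AP-1 sites and 1 CCAAT on the opposite strand. Neither Krt8 nor Krt18 held any of the 4 motifs, of which TATAAA was present in 12.4% and CCAAT in 33.8% of promoters. A match is a description of letters and was not linked to the values that follow.

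Counted reads ran from 29317215 to 32993621 per tracheal library and from 9811503 to 13208897 per lung library, so low levels were measured more precisely in trachea. The genes named next followed the labels, though not every marker list did. Krt5, a basal keratin, averaged 1538 RPKM (reads divided by gene length and by library size, the latter scaled by trimmed mean of M-values) in BSCs and 120 in tracheal non-basal cells. Scgb1a1, the club cell secretoglobin, was highest in airway CD24lo cells, Foxj1, the ciliated cell regulator, in airway CD24hi cells, and Sftpc, surfactant protein C, in alveolar cells. Epcam averaged 1.76 RPKM in EpCAM-negative cells and 86.4 to 121 elsewhere. In contrast, endothelial markers summed to 82.1 to 165 RPKM in airway CD24lo cells and 84.6 to 133 in EpCAM-negative cells. Mesothelial markers summed to 1226 to 1268 RPKM in tracheal non-basal cells and 16.2 to 34.7 in EpCAM-negative cells. Msln made up most of the tracheal sum. Against airway CD24lo cells, Msln was higher in tracheal non-basal cells (log2 fold change 4.98), while Upk3b (-8.79), Lrrn4 (-5.82) and Wt1 (-2.49) were lower. No 2 libraries of a population agreed within sampling noise. RPKM is used below for every level, so levels may be compared between genes as well as between populations, with 2 limits. Krt8 may be under- or over-counted for the shared windows given above, since how such reads were assigned is not known. The deposited length of Krt7 is shorter than the 7049 bases its exons cover in the GENCODE annotation, so its level against other genes depends on that length.

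Krt8, the type II simple keratin, was highest in airway CD24hi cells, at 713, 693 and 657 RPKM in replicates 1 to 3. Tracheal non-basal cells followed at 570, 606 and 557 RPKM, BSCs at 383, 438 and 360, airway CD24lo cells at 297, 302 and 273, and alveolar cells at 132, 144 and 147. EpCAM-negative cells had 5.56, 5.76 and 6.83 RPKM. No library of any population overlapped a neighbour in this order, and the highest population mean was 114 times the lowest.

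Krt18, its type I partner, was at 535, 630 and 534 RPKM in tracheal non-basal cells and at 573, 534 and 484 in airway CD24hi cells, which overlapped. Airway CD24lo cells had 338, 351 and 299 RPKM and BSCs 272, 310 and 262, which overlapped as well. Alveolar libraries were lower, at 136, 142 and 154 RPKM, and EpCAM-negative libraries lowest, at 4.24, 5.72 and 6.74. The order was therefore settled only in steps, with a pair of populations at the top, a pair in the middle and alveolar and EpCAM-negative cells below.

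Krt19 was the most abundant of the 6 in both tracheal populations. Tracheal non-basal libraries had 1451, 1199 and 1190 RPKM and BSC libraries 1163, 1131 and 1024. Both airway populations of the lung sat well below and overlapped, with 401, 454 and 441 RPKM in CD24lo cells and 498, 409 and 372 in CD24hi cells. Alveolar cells had 46.5, 53.7 and 55.9 RPKM and EpCAM-negative cells 8.88, 9 and 10.2. The drop from the airway populations to alveolar cells was the widest step among epithelial populations for any of the 4 simple keratins, at 8.19-fold between the means of airway CD24hi and alveolar cells.

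Krt7 was highest in BSCs, at 378, 402 and 375 RPKM, unlike Krt8 and Krt18. Tracheal non-basal libraries had 264, 214 and 208 RPKM. Airway CD24hi libraries (156, 119 and 117 RPKM) and airway CD24lo libraries (117, 139 and 111) overlapped. Alveolar cells kept 78.3, 87.2 and 79.4 RPKM and EpCAM-negative cells 15.9, 12.6 and 14.5. Krt7 thus had the narrowest span of the 6, with a highest mean 26.9 times the lowest.

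Krt4 was abundant in trachea and almost absent from lung. BSC libraries had 444, 418 and 393 RPKM and tracheal non-basal libraries 317, 218 and 233. In lung the highest levels were 0.906, 1.61 and 1.89 RPKM in airway CD24lo cells, which rested on 21, 35 and 35 reads. Airway CD24hi cells had 4, 4 and 5 reads (0.142, 0.139 and 0.184 RPKM), alveolar cells 3, 8 and 1 reads, and EpCAM-negative cells 0, 1 and 2 reads. The airway CD24hi and alveolar libraries overlapped, and at these counts a difference between them was not detectable.

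Krt13 had the same split between organs but was lower than Krt4 in trachea. BSC libraries had 165, 161 and 161 RPKM and tracheal non-basal libraries 52.1, 35.4 and 47.2. Airway CD24lo cells had 3.15, 3.51 and 1.93 RPKM and airway CD24hi cells 1.49, 0.902 and 0.658. Alveolar cells had 1, 28 and 3 reads, or 0.0671, 1.96 and 0.23 RPKM, so alveolar replicate 2 stood apart from the other two. EpCAM-negative cells had 0, 0 and 1 reads.

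**Figure D1:**
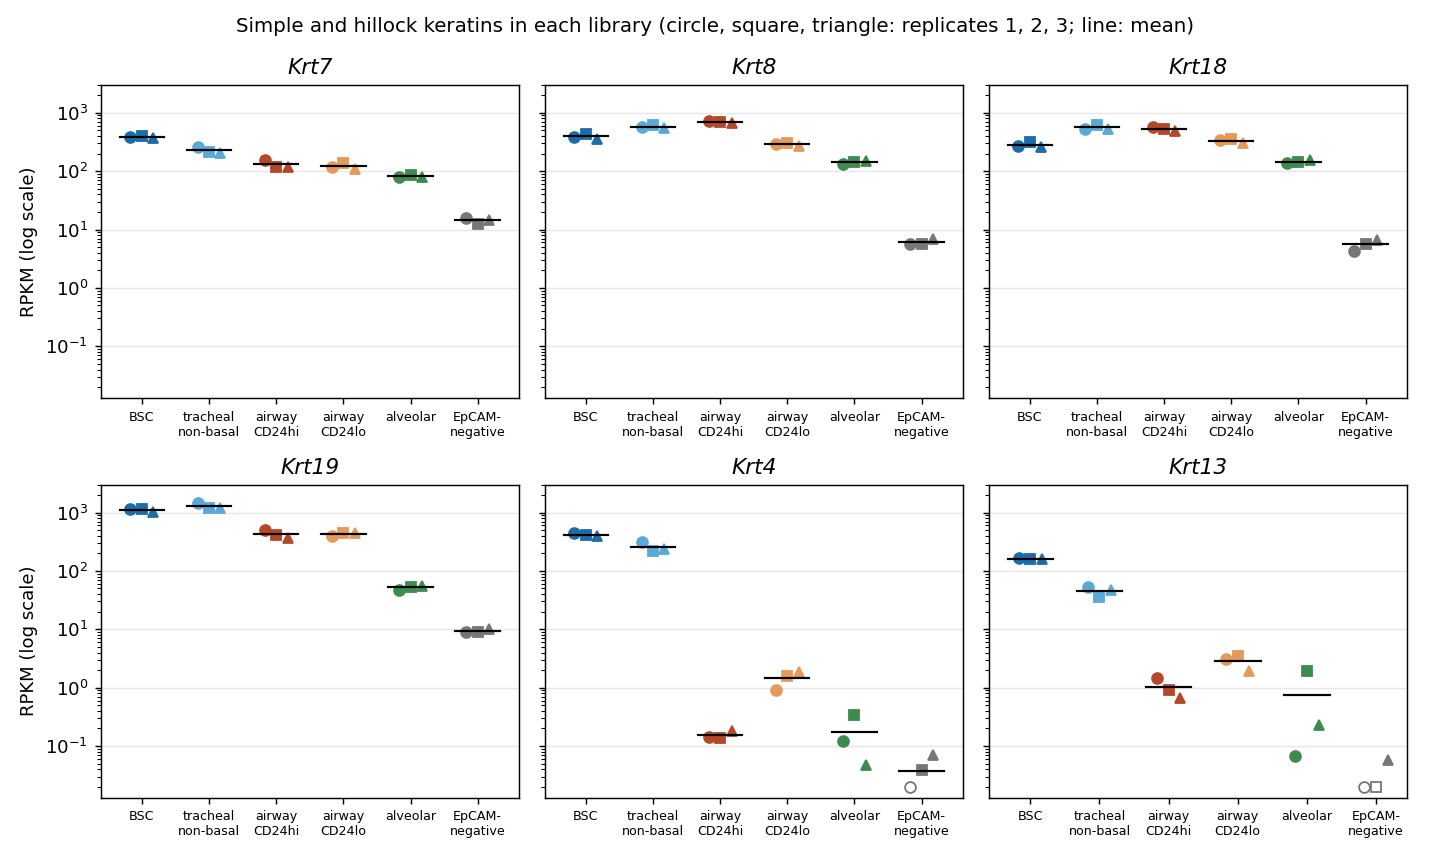
RPKM on a log axis (vertical) of each keratin in the 6 sorted populations (horizontal), with a point per library and a line at the mean of 3. Krt7, Krt8, Krt18 and Krt19 stay above 40 RPKM in every epithelial library, whereas Krt4 and Krt13 stay below 4 RPKM in every lung library; open points are libraries listed at 0, drawn at 0.02 RPKM.

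The comparison within trachea asked how keratins differ between the basal and luminal fractions of a single animal. Non-basal cells had more Krt8 and Krt18 and less Krt7, Krt4 and Krt13 than BSCs. Krt18 was 2.01-fold higher (log2 fold change 1.01, SE 0.13, edgeR adjusted p = 4.09e-06) and Krt8 1.47-fold higher (0.55, SE 0.10, adjusted p = 0.000154). Krt13 showed the widest difference and was 3.62-fold lower (-1.86, SE 0.27, adjusted p = 1.8e-05). Krt7 was 1.68-fold lower (-0.75, SE 0.13, adjusted p = 0.000106) and Krt4 1.63-fold lower (-0.71, SE 0.18, adjusted p = 0.00354). Every mouse had the same direction for each of these 5 genes. In all, 2 members were higher and 3 lower, against 26.2% and 21.9% of all genes tested, and the median log2 fold change of the 6 was -0.25 against 0.02 over all genes.

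Krt19 was 1.16-fold higher in non-basal cells (log2 fold change 0.21, SE 0.12), with no overlap between the libraries, and was not called (edgeR adjusted p = 0.163). Within mice, the non-basal library had 125%, 106% and 116% of the Krt19 of its own mouse's BSC library. With mouse as a block, in a fit of these 6 libraries, the difference was called at the same size (edgeR adjusted p = 0.00817). Scaling by library size alone moved the median of all genes to -0.31 and the calls to 16.6% higher and 43.2% lower. Krt19 then stood at -0.14 and Krt8 at 0.21 (adjusted p = 0.0745), while the other 4 calls held.

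Markers of other cell types moved with these values. All 4 basal markers were lower in non-basal cells, at a sum of 122 to 157 RPKM against 1717 to 1801 in BSCs. Non-basal libraries had 6.58 to 8.80% of the Krt5, 4.35 to 7.02% of the Krt14 and 10.3 to 16.3% of the Trp63 of the BSC library of the same mouse. They had 52.1 to 71.5% of its Krt4, 22.0 to 31.5% of its Krt13 and 53.1 to 69.9% of its Krt7. In the other direction, luminal markers differed widely among themselves. All 3 club markers were higher in non-basal cells, from Cyp2f2 (log2 fold change 1.01, close to that of Krt18) to Scgb1a1 (5.52), at a sum of 82836 to 92015 against 9592 to 11600 RPKM. Of the 4 ciliated markers, 3 were higher, from Tubb4b (0.36) to Dnah5 (4.89), and Tppp3 was not called (-0.10, edgeR adjusted p = 0.799), at a sum of 452 to 558 against 381 to 468 RPKM. All 3 goblet markers (247 to 324 against 8.30 to 11.8 RPKM), all 3 neuroendocrine markers (11.7 to 15 against 0.469 to 0.764) and 3 of 4 alveolar type 2 markers were higher in non-basal cells. Of 4 mesothelial markers, Msln (log2 fold change 3.42) and Wt1 (3.67) were higher, while Upk3b and Lrrn4 were not called. The list summed to 1226 to 1268 against 103 to 128 RPKM, with Msln making up most of the non-basal sum. Of 4 fibroblast markers 3 were higher and Dcn lower (-2.33), which brought the sum down to 27.8 to 42.3 from 159 to 163 RPKM. Alveolar type 1 markers were split (2 higher and 1 lower of 4), 1 marker each of smooth muscle, endothelium and immune cells was higher, and neither pan-epithelial marker (Epcam and Cdh1) was called. The part of any of these cell types in the keratin differences was not tested. In bulk samples, fewer cells of a type and less RNA per cell cannot be told apart. Markers of stratified squamous epithelium (Krtdap, Crnn, Sprr3, Ivl, Cnfn and Tgm3) were low in both populations. The 6 genes summed to 1.75 to 2.69 RPKM in BSCs and 0.595 to 0.897 RPKM in non-basal cells. Of the 5 tested, 3 were lower in non-basal cells, as Krt4 and Krt13 were, and 1 was higher. Their part in the keratin differences was not tested either.

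**Figure D2:**
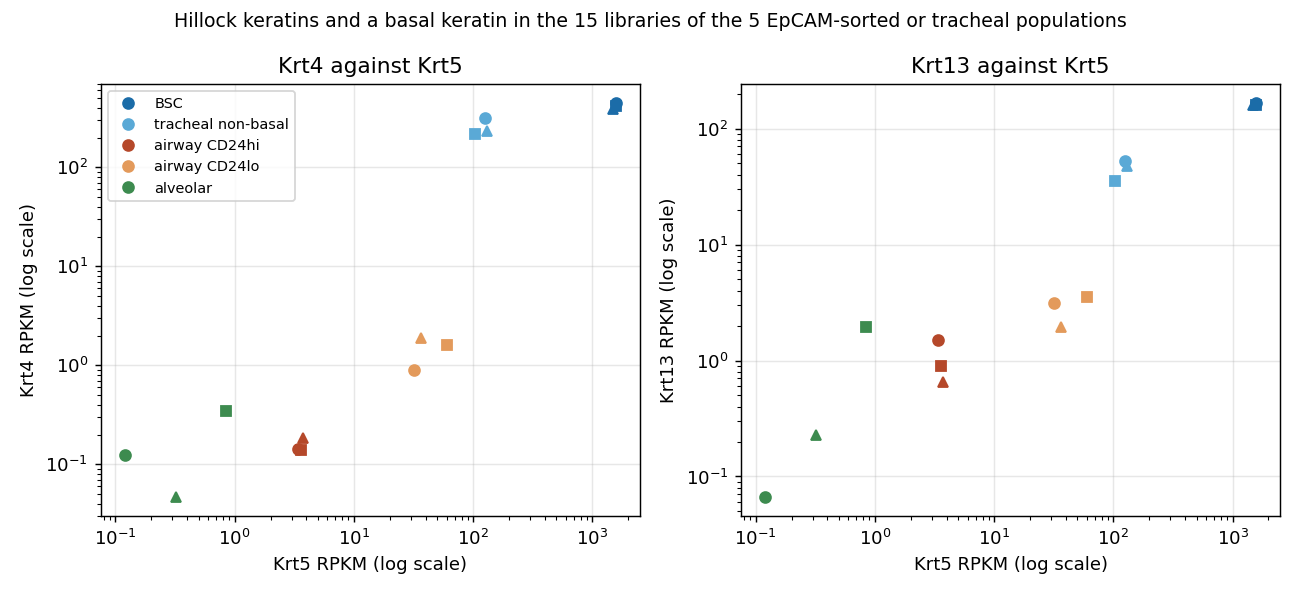
Krt4 (left) and Krt13 (right) against Krt5, all in RPKM on log axes, with a point per library for 5 populations (EpCAM-negative left out). Tracheal non-basal libraries have 103 to 130 RPKM of Krt5 and airway CD24lo libraries 31.9 to 60.0, whereas their Krt4 is 218 to 317 against 0.906 to 1.89.

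Tracheal non-basal cells were compared with each airway population of the lung, to ask how the keratins of luminal cells differ along the airway. Against airway CD24lo cells all 6 members were higher in trachea, where 25.3% of genes were higher and 27.8% lower. Krt4 was 177-fold higher (log2 fold change 7.47, SE 0.26, edgeR adjusted p = 8.78e-13) and Krt13 15.5-fold higher (3.95, SE 0.34). Krt19 was 2.96-fold, Krt8 1.99-fold, Krt7 1.87-fold and Krt18 1.72-fold higher, and no member's libraries overlapped. The median of the 6 was 1.28 against -0.04 over all genes. Trp63, the basal transcription factor, overlapped between these populations, at 8.93, 11.3 and 16.9 RPKM in tracheal non-basal and 6.78, 11.9 and 8.57 in airway CD24lo libraries. Krt5 was at 126, 103 and 130 RPKM against 31.9, 60.0 and 36.5. The other basal markers were higher in trachea as well, Krt14 by 2.70 (SE 0.31, adjusted p = 1.16e-06) and Ngfr by 0.50 on the log2 scale, and the basal keratin Krt15 by 3.58 (SE 0.22), which is near the value of Krt13. The summed level of the 4 basal markers was 122 to 157 RPKM in tracheal non-basal cells and 41.9 to 76.3 in airway CD24lo cells. Both pan-epithelial markers were higher in trachea too (Epcam by 0.41 and Cdh1 by 0.56 on the log2 scale), as were 2 of 3 goblet (1 lower) and 2 of 3 neuroendocrine markers. Many lung and stromal markers were lower in trachea, with all 4 alveolar type 2 (median log2 fold change -5.16), all 4 fibroblast (-3.56), all 3 smooth muscle (-6.22) and all 3 endothelial markers (-9.31). Of the others, 3 of 4 alveolar type 1 and 3 of 4 mesothelial markers were lower with 1 higher, and 1 immune marker was lower. Club markers had 1 of 3 lower, Scgb1a1 (-3.31), and ciliated markers 1 higher and 1 lower of 4. Of 5 stratified squamous markers tested, Crnn (4.71) and Sprr3 (6.49) were higher in trachea and Cnfn (-6.04) lower. The list summed to 0.595 to 0.897 RPKM in tracheal non-basal and 0.453 to 1.02 in airway CD24lo cells. The part of any marker group in the keratin differences was not tested.

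Against airway CD24hi cells, 4 members were higher in trachea and 1 lower, where 31.5% of genes were higher and 36.9% lower. Krt4 was 1626-fold higher (log2 fold change 10.67, SE 0.32, edgeR adjusted p = 8.1e-14) and Krt13 43.8-fold (5.45, SE 0.38), while Krt19 was 3.00-fold and Krt7 1.75-fold higher. Krt18 did not pass the test (0.09, SE 0.13, adjusted p = 0.523). Krt8 was 1.19-fold lower in trachea (-0.25, SE 0.10, adjusted p = 0.0309), a call that was lost, at adjusted p = 0.0525 to 0.0968, without tracheal non-basal replicate 1 (-0.24) or 3 (-0.22) or airway CD24hi replicate 1 (-0.23) or 2 (-0.25). By library size alone the median of all genes was -0.34, with 23.3% higher and 45.3% lower, and Krt18 stood at -0.16. Cell type markers differed strongly here as well. All 4 basal markers were higher in trachea (median log2 fold change 4.18, sums of 122 to 157 against 4.51 to 5.46 RPKM), as were all 3 goblet (3.97) and all 3 neuroendocrine markers (6.40). Club markers had 2 of 3 higher. Stratified squamous markers had 2 higher and 1 lower of 5 tested, at sums of 0.595 to 0.897 against 0.058 to 0.301 RPKM. All 4 ciliated markers were lower (-3.60, sums of 452 to 558 against 4170 to 5035 RPKM), as were all 3 smooth muscle (-4.41), all 3 endothelial (-7.82) and 3 of 4 alveolar type 2 markers. Fibroblast and alveolar type 1 markers each had 3 lower and 1 higher of 4, mesothelial markers 2 lower and 1 higher, and 1 immune marker and Cdh1 (-0.48) were lower. Their part in the keratin differences was not tested.

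Within lung, the CD24hi and CD24lo airway gates of the same mice split the members. Krt8 was 2.37-fold higher in CD24hi cells (log2 fold change 1.24, SE 0.10, edgeR adjusted p = 1.2e-08) and Krt18 1.61-fold (0.69, SE 0.13, adjusted p = 0.000175). Krt4 was 9.20-fold lower (-3.20, SE 0.43, adjusted p = 5.34e-06) and Krt13 2.83-fold lower (-1.5, SE 0.49, adjusted p = 0.0145). Krt7 (0.10, adjusted p = 0.559) and Krt19 (-0.02, adjusted p = 0.911) overlapped and were not called. So 2 members were higher and 2 lower, against 27.8% and 27.2% of genes. The Krt13 call was lost without airway CD24hi replicate 3 (-1.27, adjusted p = 0.0543) or airway CD24lo replicate 2 (-1.34, adjusted p = 0.0572). By library size alone the median of all genes rose to 0.21, with 38.9% higher and 18% lower, and Krt7 (0.39, adjusted p = 0.0132) and Krt19 (0.27, adjusted p = 0.0473) were then called higher. All 4 ciliated markers were higher in CD24hi cells, their summed level being 4170 to 5035 RPKM against 451 to 895. Both pan-epithelial markers were higher as well, Epcam by 0.49 (edgeR adjusted p = 7.93e-05) and Cdh1 by 1.04 on the log2 scale (1.9e-08), at a sum of 294 to 310 against 160 to 183 RPKM. Markers of many other cell types were lower, as Krt4 and Krt13 were. These were all 4 basal markers (a sum of 4.51 to 5.46 against 41.9 to 76.3 RPKM), all 3 club (72529 to 95277 against 490166 to 690822), all 3 goblet (6.58 to 10.7 against 93.1 to 115) and all 3 neuroendocrine markers (0.53 to 0.918 against 2.61 to 4.62). They also included all 4 alveolar type 2, all 4 fibroblast, all 3 smooth muscle, 3 of 4 mesothelial and 1 of 3 endothelial markers, while alveolar type 1 markers had 2 lower and 1 higher of 4 and no immune marker was called. Among 5 stratified squamous markers tested, 1 was lower. The part of any marker group in the keratin differences was not tested.

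Airway and alveolar cells of the same lungs were compared to see which keratins change between conducting airway and gas-exchange epithelium. Airway CD24lo cells had more of all 6 members, where 24.2% of genes were higher and 24.2% lower. Krt19 was 8.30-fold higher (log2 fold change 3.05, SE 0.13, edgeR adjusted p = 3.91e-12). Krt18 was 2.28-fold, Krt8 2.06-fold and Krt7 1.5-fold higher. Krt4 was 8.14-fold higher (3.03, SE 0.44, adjusted p = 1.76e-05), on 91 reads against 12, of which 8 came from alveolar replicate 2, and by 4.00 on the log2 scale without that library. Krt13 was 3.81-fold higher (1.93, SE 0.54, adjusted p = 0.00669), with an overlap from alveolar replicate 2, without which the difference was 4.30 on the log2 scale. The Krt13 call did not hold in a fit of only the libraries compared, at the same size of difference. Markers of many other cell types were higher in airway CD24lo cells too, among them all 3 club, all 4 ciliated and all 3 goblet markers. All 4 basal markers were higher (median log2 fold change 5.94), at a sum of 41.9 to 76.3 against 0.303 to 1.26 RPKM, as were 3 of 4 mesothelial markers (36.0 to 66.4 against 1.84 to 3.49), all 3 smooth muscle markers (68.5 to 142 against 41.6 to 64.8), 2 of 3 endothelial (82.1 to 165 against 26.0 to 51.8) and 2 of 3 neuroendocrine markers. Others went the opposite way, with all 4 alveolar type 2 (-4.11) and both pan-epithelial markers (Epcam -0.30, Cdh1 -0.35) lower, and 3 of 4 alveolar type 1 and 3 of 4 fibroblast markers lower with 1 higher. No immune marker was called, and 1 of 5 stratified squamous markers tested was higher and 1 lower. The study's methods describe the alveolar gate as negative for CD31, the endothelial antigen, and for CD45. The part of any of these markers' cell types in the keratin differences was not tested.

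Airway CD24hi cells had 4 members higher than alveolar cells, against 30.5% of genes higher and 31.4% lower. Krt19 was 8.19-fold, Krt8 4.88-fold, Krt18 3.68-fold and Krt7 1.60-fold higher. Krt4 (13 reads against 12, ratio 0.882, 95% counting interval 0.371 to 2.11) and Krt13 (53 against 32 reads, 1.35, 0.853 to 2.16) were not called. Without alveolar replicate 2, Krt13 was called higher in airway CD24hi cells (log2 fold change 2.80, edgeR adjusted p = 0.00162). By library size alone the split over all genes became 40.5% higher and 21.4% lower around a median of 0.29, with 4 members called. All 4 ciliated markers were higher in airway CD24hi cells (median log2 fold change 5.99, sums of 4170 to 5035 against 273 to 282 RPKM), as were all 3 club (4.30) and 3 of 4 basal markers (2.66), and all 4 alveolar type 2 markers were lower (-6.25). Goblet markers had 2 higher and 1 lower of 3, alveolar type 1 markers 1 higher and 3 lower of 4, and 3 of 4 fibroblast markers were lower. Cdh1 (0.70), 1 mesothelial and 1 endothelial marker were higher, and 1 marker each of smooth muscle, immune and neuroendocrine cells was lower. Lower as well were 2 of 5 stratified squamous markers tested. Their part in the keratin differences was not tested.

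Between the tracheal BSCs and alveolar cells, all 6 members were higher in BSCs, where 30.5% of genes were higher and 35.6% lower. By library size alone the split was 44% and 24.3%, with all 6 still called. Krt4 was 2348-fold higher (log2 fold change 11.20, SE 0.33, edgeR adjusted p = 9.21e-15) and Krt13 213-fold (7.74, SE 0.42, adjusted p = 2.14e-11), with values of 12.16 and 10.10 on the log2 scale without alveolar replicate 2. Among simple keratins Krt19 was 21.3-fold (4.41, SE 0.14), Krt7 4.71-fold, Krt8 2.80-fold and Krt18 1.95-fold higher. The simple keratins thus ranged from a change of 0.97 to one of 4.41 on the log2 scale in a single comparison. All 4 basal markers stood higher in BSCs, by a median of 9.98 on the log2 scale, and all 4 alveolar type 2 markers lower (-11.69), and all 3 smooth muscle and all 3 endothelial markers were lower too. Fibroblast and mesothelial markers each had 3 lower and 1 higher of 4, and 3 of 4 alveolar type 1, 2 of 4 immune and 1 of 3 neuroendocrine markers were lower. Club markers had 2 higher and 1 lower of 3, and 2 of 3 goblet and 2 of 4 ciliated markers were higher, with neither pan-epithelial marker called. The 5 stratified squamous markers tested were split, with 2 higher and 2 lower in BSCs. Their part in the keratin differences was not tested.

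Alveolar cells were compared with EpCAM-negative cells to show what remained outside the epithelial gates. All 6 members were higher in alveolar cells, where 29.2% of genes were higher and 32.7% lower. Krt18 was 25.8-fold higher (log2 fold change 4.69, SE 0.16, edgeR adjusted p = 3.57e-14) and Krt8 23.2-fold (4.54, SE 0.12). Krt7 was only 5.70-fold (2.51, SE 0.14) and Krt19 5.56-fold higher (2.47, SE 0.13). EpCAM-negative libraries had 14.4 to 20.3% of the Krt7 and 16.8 to 19.1% of the Krt19 of the alveolar library of the same mouse, with 4.01 to 4.66% of the Krt8 and 3.11 to 4.39% of the Krt18. They had 1.53 to 1.74% of its Epcam and 2.27 to 2.72% of its Cdh1. Of 4 alveolar type 1 markers, Ager was at 10.7 to 14.5% of the alveolar level and Aqp5 was also lower, while Hopx (log2 fold change -0.04) and Rtkn2 (-0.35) were not called, and the 4 summed to 176 to 230 RPKM against 1526 to 1541 in alveolar cells. Of the airway markers, 2 of 3 club and 2 of 4 ciliated markers were lower in EpCAM-negative cells, and the others were not called. Scgb1a1 stood at 40.9 to 68.2% and Foxj1 at 26.3 to 69.7% of the alveolar level. Of the 4 basal markers, Trp63 (577 to 867%) and Ngfr (583 to 1961%) were above it, while Krt5 (26.9 to 152%) and Krt14 (a mean of 107%) were not called. Levels were near 0, as the 4 basal markers summed to 1.39 to 1.75 against 0.303 to 1.26 RPKM. Upk3b, a marker of mesothelium (the lining of the lung surface), was at 6.74, 7.38 and 15 RPKM in EpCAM-negative cells against 0.519 to 1.13 in alveolar cells, and all 4 mesothelial markers were higher there, at a sum of 16.2 to 34.7 against 1.84 to 3.49 RPKM. Far higher sums came from fibroblast markers (all 4 higher, 5237 to 5439 against 87.1 to 142 RPKM) and smooth muscle markers (all 3, 1456 to 1551 against 41.6 to 64.8). All 3 endothelial (84.6 to 133 against 26.0 to 51.8) and 3 of 4 immune markers were higher in EpCAM-negative cells as well, with 1 immune marker lower. All 4 alveolar type 2, 2 of 3 neuroendocrine, 1 of 3 goblet and 1 of 5 tested stratified squamous markers were lower there. The part of any marker group in the Krt7 and Krt19 values was not tested.

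The hillock keratins differed between alveolar and EpCAM-negative cells on very few reads. Krt4 had 12 reads against 3, a ratio of 4.69 (95% counting interval 1.27 to 25.9), with overlapping libraries and an edgeR adjusted p of 0.0497. With mouse as a block its adjusted p was 0.102, so the call did not hold. The call was also lost, at adjusted p = 0.0511 to 0.357, without alveolar replicate 1 (2.35) or 2 (1.2) or EpCAM-negative replicate 1 (1.59) or 2 (2.16). Krt13 had 32 reads against 1, a ratio of 37.6 (6.27 to 1529), of which 28 reads came from alveolar replicate 2. Leaving that library out gave 2.58 on the log2 scale (adjusted p = 0.134). By library size alone 5 members were called, around a median of all genes of -0.19 and a split of 22.9% higher and 38.6% lower.

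**Figure D3:**
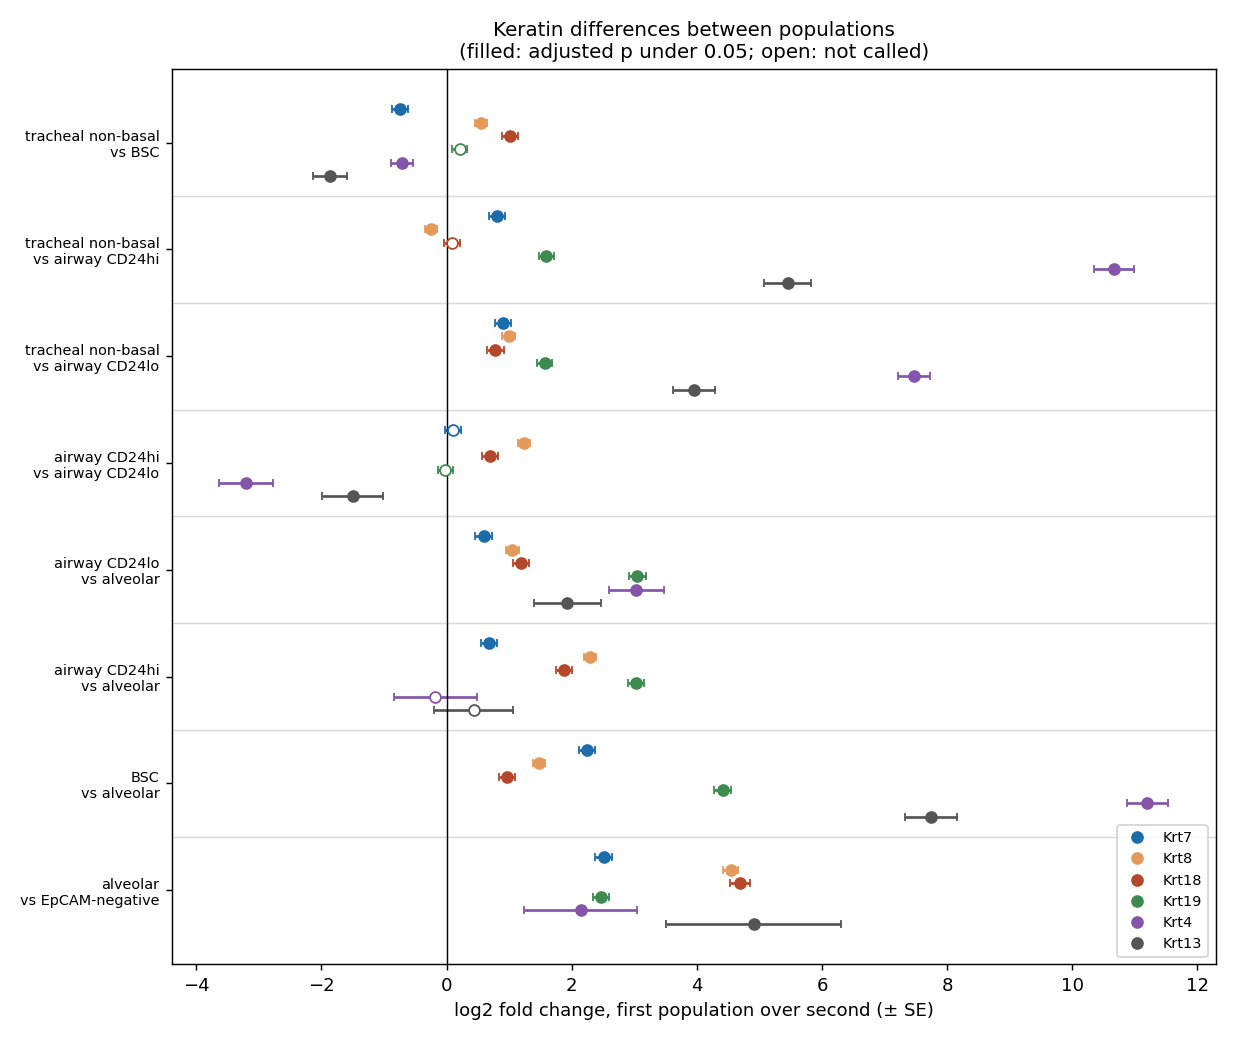
Log2 fold change of each keratin, first population over second, with its SE as a bar (edgeR), in the 8 comparisons. Filled points passed an adjusted p of 0.05. Krt4 and Krt13 span from -3.20 to 11.20, whereas the 4 simple keratins lie between -0.75 and 4.69.

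Because filaments need both types, the members were also set within the whole family of 51 keratins measured. Summed keratin RPKM was 7549 ± 363 (SD, n = 3) in BSCs, 4571 ± 375 in tracheal non-basal cells, 1838 ± 161 in airway CD24hi cells, 1419 ± 93.9 in airway CD24lo cells, 521 ± 21.4 in alveolar cells and 51.6 ± 2.94 in EpCAM-negative cells. The 6 members made up 36.4 ± 0.258% of it in BSCs, 64.7 ± 0.923% in tracheal non-basal cells and 96.7 ± 0.100% in airway CD24hi cells. In airway CD24lo cells they made up 83.1 ± 1.98%, in alveolar cells 80.4 ± 1.61% and in EpCAM-negative cells 68.5 ± 2.29%. Airway CD24hi cells had the highest share of Krt8 with Krt18, at 66.4 ± 2.07% of keratin RPKM, and BSCs the lowest, at 8.93 ± 0.558%.

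**Figure D4:**
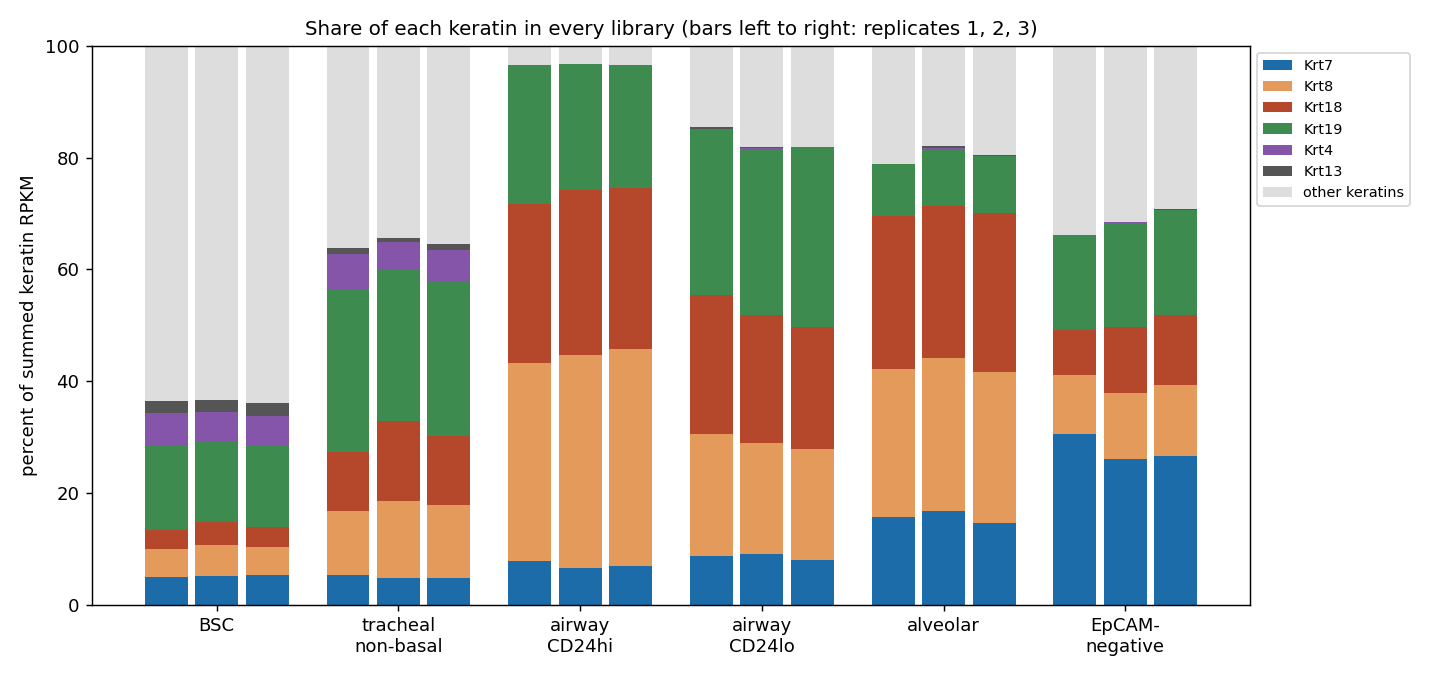
Percent of summed keratin RPKM (vertical, from 0 to 100) taken by each of the 6 keratins and by all other keratins, with a stacked bar per library. The members fill 96.6 to 96.8% of the bar in airway CD24hi libraries and 36.1 to 36.6% in BSC libraries, where Krt15 and Krt5 lead.

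The type I and type II partners were not equal in every population. Krt8 exceeded Krt18 in BSCs, with ratios of 1.41, 1.41 and 1.38, and in airway CD24hi cells, with 1.24, 1.30 and 1.36. The ratio was 1.07, 0.962 and 1.04 in tracheal non-basal cells, 0.879, 0.859 and 0.915 in airway CD24lo cells and 0.969, 1.01 and 0.953 in alveolar cells. The BSC and airway CD24hi libraries thus lay above all others of the epithelial gates, with no overlap. Krt7 was well below Krt19 in every airway population, with mean ratios of 0.178 in tracheal non-basal cells, 0.284 in airway CD24lo, 0.307 in airway CD24hi cells and 0.349 in BSCs. In alveolar cells Krt7 exceeded Krt19, with ratios of 1.68, 1.62 and 1.42, and EpCAM-negative cells had 1.79, 1.40 and 1.42. Krt4 exceeded Krt13 by 2.57 ± 0.128 (SD, n = 3) in BSCs and 5.73 ± 0.676 in tracheal non-basal cells. In lung, on few reads, the ratio of Krt4 to Krt13 was below 1 in every airway library. It was 0.0948 to 0.28 in airway CD24hi, 0.287 to 0.98 in airway CD24lo and 0.176 to 1.85 in alveolar cells. These ratios are descriptions and were not tested. Whether Krt7 lay above or below Krt19 also rests on the gene length used for Krt7, while differences of that ratio between populations do not. Part of the Krt8 count is uncertain in either direction. Whether Krt8 lay above or below Krt18 is therefore not settled where the ratio is near 1, as in tracheal non-basal, airway CD24lo and alveolar cells.

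**Figure D5:**
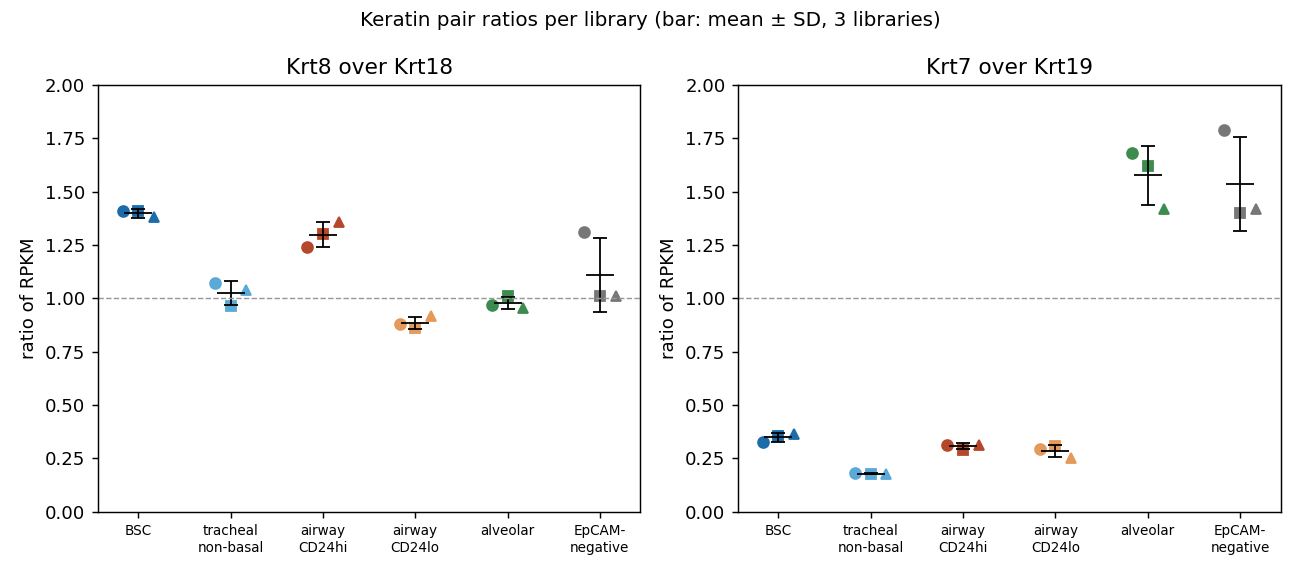
Ratio of Krt8 to Krt18 (left) and of Krt7 to Krt19 (right) in RPKM for each library (points) with mean and SD of 3 libraries (bars). The dashed line marks equal levels, and Krt8 may be under- or over-counted for windows shared with other transcripts. Krt7 to Krt19 lies between 0.175 and 0.366 in all airway libraries and between 1.40 and 1.79 in alveolar and EpCAM-negative libraries.

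The rest of the keratin family was counted in the same comparisons. In tracheal non-basal cells against BSCs, 2 of the 17 other type I keratins tested were higher and 7 lower (median log2 fold change -0.50), and 1 of 10 other type II keratins was higher and 5 lower (median -0.81), against 26.2% higher and 21.9% lower over all genes (median 0.02). Krt15, a type I keratin of basal cells and the most abundant keratin of BSCs at 2413 RPKM, was lower in non-basal cells (-1.07, SE 0.20, edgeR adjusted p = 0.000305), as was its neighbour in rank Krt5 (-3.68, SE 0.24). The type I keratins that were higher were Krt23 (1.81, SE 0.16, adjusted p = 7.21e-08) and Krt34, and the type II was Krt83. Krt23 was also the only keratin outside the 6 above 20 RPKM in alveolar cells, at 86.3, 73.1 and 88.4 RPKM. In alveolar against EpCAM-negative cells, 2 of 17 other type I keratins were higher (Krt23 and Krt12) and 1 of 10 type II was higher (Krt87) and 1 lower (Krt79), against 29.2% and 32.7% of all genes.

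Companion genes of hillocks did not all follow Krt4 and Krt13. This list held Ecm1, S100a11, Cldn3, Lgals3 and Anxa1, and all 5 were tested. Between tracheal non-basal cells and BSCs, Lgals3 (galectin-3) was lower (log2 fold change -0.53, SE 0.13, edgeR adjusted p = 0.00207) and Cldn3, a tight junction claudin, was higher (1.54, SE 0.16), while 3 were not called, against 26.2% higher and 21.9% lower over all genes. Against airway CD24lo cells, where 25.3% of all genes were higher, 4 of 5 were higher in tracheal non-basal cells, among them the abundant Anxa1 (annexin A1, 1.58, SE 0.13, adjusted p = 1.58e-08) and S100a11 (0.55, SE 0.12, adjusted p = 0.000788). Unlike Krt4, each was plentiful in lung, with Anxa1 at a mean of 350 RPKM and S100a11 at 568 RPKM in airway CD24lo cells. In airway CD24hi against CD24lo cells, 4 of 5 were higher, from S100a11 (0.47) to Lgals3 (1.17), where 27.8% of all genes were. Krt4 (-3.20) and Krt13 (-1.5) were lower there. Tracheal non-basal cells had 3 of 5 higher than airway CD24hi cells and Cldn3 lower (-1.06), beside 31.5% and 36.9% of all genes. Ecm1 was highest outside the epithelium, at 347 RPKM in EpCAM-negative cells.

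Genes that link or organise keratin filaments were mostly lower in tracheal non-basal cells than in BSCs, 9 of 12 being lower and 1 higher (median -0.62, against 21.9% lower, 26.2% higher and a median of 0.02 over all genes). Dsp (desmoplakin, which anchors keratin to desmosomes) was lower (log2 fold change -1.52, SE 0.12, edgeR adjusted p = 8.52e-09) and so was Jup (plakoglobin, -0.37, SE 0.13, adjusted p = 0.0222). Pkp2 (plakophilin 2) was the gene that was higher (1.07, SE 0.09). In alveolar against EpCAM-negative cells, 9 of the 12 were higher and 1, Plec, lower, against 29.2% and 32.7% of all genes. Among 11 epithelial transcription factors, 3 were higher and 5 lower in tracheal non-basal cells than in BSCs, and of 8 other intermediate filament genes 4 were lower, beside the same 26.2% and 21.9% of all genes. Elf3 was higher (0.33, SE 0.12, adjusted p = 0.0271) and Klf4 lower (-1.76, SE 0.16, adjusted p = 8.99e-08). Among the filament genes the nuclear lamin Lmna was lower (-0.95, SE 0.13), and Vim (vimentin) was not called (0.85, SE 0.35, adjusted p = 0.056). In EpCAM-negative cells Vim reached 692 RPKM where Krt8 was at 6.05.

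Likeness of pattern was measured by Pearson's r of log2 CPM (reads scaled to library size, not length) over the 18 libraries, for 10555 genes averaging at least 10 CPM. These libraries share mice and populations, so r is a description. Krt8 and Krt18 had an r of 0.99 with each other and shared Map7 (0.986 and 0.993), which encodes a microtubule-binding protein, and Galnt3 (0.989 and 0.992), a glycosyltransferase, among their 3 most alike genes. The third was Eps8l2 (0.986) for Krt8 and Osbpl3 (0.989) for Krt18. Krt7 was most like Dsp (0.991), with Xrcc5 (0.987) also among its 3, and Cldn23 (0.985) was among the 3 of Krt19. Krt4 and Krt13 had an r of 0.96 with each other and shared no gene among their 3. Krt4 was most like Clca3b (0.988), Gpd2 (0.985) and F5 (0.984), and Krt13 most like Sap30 (0.974), Top2a (0.973) and Pkp1 (0.972). The lowest r among the members was 0.51, between Krt18 and Krt4.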

How the data were processed

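RNA from sorted cells was sequenced as single-end reads of 100 bases. Per the labels, bcl2fastq 1.8.4 was used, and the authors aligned reads to mm10 with Rsubread and assigned them to Entrez genes with featureCounts; the deposited values are raw counts per gene and sample, with gene lengths. How reads that map to several places were treated and whether strand was used are not given in the sources used here. No row lacked a gene, and 25275 of 27179 identifiers matched a symbol.

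Genes above 0.2 CPM (counts scaled to library size) in at least 3 libraries were kept, and 1 model over all 18 libraries was fitted (edgeR 4.0.16, trimmed mean of M-values, quasi-likelihood test, R 4.3.3). A difference was called at a Benjamini-Hochberg adjusted p under 0.05 over all 17989 genes. The study's own methods used limma-voom, tried here as an alternative with limma 3.58.1 and DESeq2 1.42.0. Log2 CPM for likeness used a prior count of 2. Intervals and floors cover counting error only. With 3 libraries a population, no single-gene outlier test was made. The script was tested on simulated data.

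Libraries of the same mouse are paired by the labels, within trachea and within lung. Their deviations from the population means correlated at -0.06 to 0.34 over 15 pairs, and a fit with mouse as a block was an alternative. The members and gene lists were chosen with earlier results of these data known. Named genes are the 6 members, the 3 most alike genes of each, and in each list those of highest mean RPKM or needed to account for a count; some of the most alike genes are not reported here. A table of all samples, which repeats the counts, was not used.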

Additional observations from a re-analysis of the deposited data

How the results depend on the processing

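Of 654 values of a member in a comparison under an alternative (48 pairs of gene and comparison), 618 kept their direction and side of the threshold. With the sign kept, 22 lost and 3 gained a call. The other 11 changed sign, none of these 11 being a call in the main analysis. Among these 11, Krt19 in airway CD24hi against CD24lo cells by library size alone (0.27) was then called. By library size alone, members called higher fell to 1 in tracheal non-basal cells against BSCs and rose to 4 in airway CD24hi against CD24lo cells, and 3 of 6 members kept their order of populations. Sign changes under it were Krt19 (-0.14) and, in tracheal non-basal against airway CD24hi cells, Krt18 (-0.16), then Krt19 in airway CD24hi against CD24lo cells (0.27) and Krt4 in airway CD24hi against alveolar cells (0.13, also 0.13 with limma-voom). Members called lower in tracheal non-basal against airway CD24hi cells fell to 0 with no filter and with only the libraries compared, and in airway CD24hi against CD24lo cells to 1 with DESeq2. The cause was not tested. Leaving out each library gave 0 to 1 and 1 to 2 members lower in these comparisons, and 4 to 5 and 4 to 6 higher in airway CD24hi against alveolar and alveolar against EpCAM-negative cells. Small values that changed sign were Krt7 (-0.05 without airway CD24hi replicate 1, up to 0.20 in the others), Krt19 (0.01, 0.07 and 0.01) without airway CD24hi replicate 2 or 3 or CD24lo replicate 2, and, in airway CD24hi against alveolar cells, Krt4 (0.80 without alveolar replicate 2, down to -0.56) and Krt13 (-0.14 without alveolar replicate 1, up to 2.80). Krt13 in airway CD24lo against alveolar cells was not called with only the libraries compared (1.93, adjusted p = 0.0626).

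With mouse as a replicate block, 3 members were higher and 3 lower in tracheal non-basal cells than in BSCs and 5 were higher in alveolar than in EpCAM-negative cells. The pairing changed no other call. Depth limits Krt4 and Krt13 in lung, where single libraries held 0 to 35 reads of Krt4 and 0 to 47 of Krt13.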

Other observations

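Alveolar replicate 2, which held 28 of the 32 alveolar Krt13 reads, was also the highest alveolar library for Krt4 (8 reads against 3 and 1), Krt5 (20 reads against 3 and 7) and Krt14 (4 reads against 0 and 0), and held both reads of Krtdap. Trp63 did not follow, at 6 reads against 9 and 5. These genes were chosen after their values were seen. In the lung airway gates Krt80, a type II keratin of wide expression, was the most abundant keratin outside the 6 in airway CD24hi cells, at 31.6, 24.9 and 20.8 RPKM.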
